A study of Mus musculus with 4 samples.

Results

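The genes described here are those encoded by mitochondrial DNA, taken as every gene whose symbol starts with mt-. The rule found 37 of the 55335 genes listed for this series, namely 13 protein genes, 2 ribosomal RNA (rRNA) genes and 22 transfer RNA (tRNA) genes. The series holds 4 RNA-seq libraries of the mouse colon carcinoma line CT26, and expression is given as FPKM, a fragment count divided by transcript length in kilobases and by library depth. CT26_102_R and CT26_CTL_R are labelled FOSL2-KO with chemoradiotherapy, and CT26_102 and CT26_CTL are labelled FOSL2-WT with PBS. The labelled genotype and the labelled treatment differ between the same libraries, and their parts in any difference cannot be told apart. The titles carry a second division, the stem CT26_102 against the stem CT26_CTL, and neither what this stem stands for nor what R stands for is stated. No dose, time or clone is stated, and the design text speaks of knockdown rather than knockout cells. Each combination of stem and suffix is 1 library, and no label says whether they are separate cultures. The p-values of the main fits therefore rest on how unequal a difference was across the other division, with the spread pooled over genes. They measure no spread between replicate samples, and the spread they use may be technical.

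Mitochondrial DNA is a small circular genome, and both of its strands are transcribed into long precursor RNAs. In the precursors many mRNAs and rRNAs lie between tRNAs, and cutting out the tRNAs frees them. The protein genes encode core subunits of respiratory complexes I, III, IV and V, the rRNAs build the mitochondrial ribosome, and the tRNAs serve translation inside the organelle. All other proteins of the respiratory chain, the mitochondrial ribosome and the transcription machinery come from nuclear genes. Copies of mitochondrial DNA are also found in nuclear chromosomes, where they are annotated as pseudogenes.

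The steps between low FPKM values correspond to approximate depths of 24.2 M fragments in CT26_102_R, 21.6 M in CT26_102, 21.6 M in CT26_CTL_R and 26.4 M in CT26_CTL. Fosl2, the gene named in the labels, had 16.0 FPKM in CT26_102_R and 19.2 FPKM in CT26_CTL_R, against 9.35 FPKM in CT26_102 and 12.7 FPKM in CT26_CTL (log2 difference 0.64 ± 0.13, SE of the limma fit, adjusted p = 0.0444). The transcript was thus higher in the libraries labelled FOSL2-KO, and a value per gene does not show whether a part of the gene was deleted. Of the epithelial markers, Epcam was listed at 0 in all 4 libraries and Cdh1 did not exceed 0.0202 FPKM, while Krt18 lay between 34.7 and 76.5 FPKM. The fibroblast gene Col1a1 lay between 17.3 and 60.7 FPKM, while the fibroblast genes Dcn and Pdgfra did not exceed 0.142 FPKM and 1.57 FPKM. The macrophage-expressed gene Lyz2 lay between 4.36 and 53.1 FPKM. The defining immune gene Ptprc did not exceed 0.0880 FPKM, and the T cell gene Cd3e and the endothelial gene Cdh5 were listed at 0. Some markers differed by stem, among them epithelial Krt8, at 2.74 FPKM in CT26_102_R and 3.82 FPKM in CT26_102, against 0.652 FPKM in CT26_CTL_R and 0.461 FPKM in CT26_CTL. Krt18 went the other way, at 39.6 FPKM in CT26_102_R and 34.7 FPKM in CT26_102, against 76.5 FPKM in CT26_CTL_R and 42.5 FPKM in CT26_CTL. So did epithelial Vil1, which did not exceed 0.151 FPKM. Endothelial Pecam1 had 0.482 FPKM in CT26_102_R and 0.369 FPKM in CT26_102, against 0.00566 FPKM in CT26_CTL_R and 0.00609 FPKM in CT26_CTL, and the part of such differences in the stem results was not tested.

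The 13 protein genes were among the most abundant transcripts of every library, and the rRNA and tRNA genes took small shares. All 37 genes together took 12.3% of the summed FPKM in CT26_102_R, 12.0% in CT26_102, 9.09% in CT26_CTL_R and 9.37% in CT26_CTL. Weighted by transcript length, the same genes took 4.84% in CT26_102_R, 4.401% in CT26_102, 3.97% in CT26_CTL_R and 3.74% in CT26_CTL, and the mean gap between the stems was 0.764 points in place of 2.92. The protein genes accounted for 11.8% in CT26_102_R, 11.7% in CT26_102, 8.45% in CT26_CTL_R and 8.92% in CT26_CTL. The 2 stems did not overlap in the FPKM share of the protein genes, and suffix R moved it by less than 0.5 points within either stem. The rRNA genes took between 0.0835% and 0.189%, and the tRNA genes between 0.255% and 0.457%. In an mRNA library such low values for rRNA and tRNA describe what the kit captured and are no measure of these RNAs in the cell.

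The gene mt-Co1, a core subunit of cytochrome c oxidase (complex IV), was the highest mitochondrial gene of every library. It had 9574 FPKM in CT26_102_R, 8169 FPKM in CT26_102, 8025 FPKM in CT26_CTL_R and 6947 FPKM in CT26_CTL, and it ranked 1 among all genes in 3 libraries and 2 in CT26_CTL_R. At the low end stood mt-Nd3 and mt-Nd4l, both subunits of complex I, the NADH dehydrogenase. The highest protein gene exceeded the lowest 21.1-fold in CT26_102_R, 26.3-fold in CT26_102, 25.3-fold in CT26_CTL_R and 16.0-fold in CT26_CTL. Genes that share 1 precursor thus differed widely in FPKM, which is a level per length. As described below, mt-Nd3 and mt-Nd4l have nearly complete copies on chromosome 1, and mt-Co1 has a partial copy there. The part of fragments shared with these copies in the range was not tested. In the top 100 genes stood 13 of the 13 protein genes in CT26_102_R and 12 in each of the other libraries. FPKM of the shortest genes depends on how transcript ends were treated when lengths were counted, which is not given in the sources used here.

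**Figure D1:**
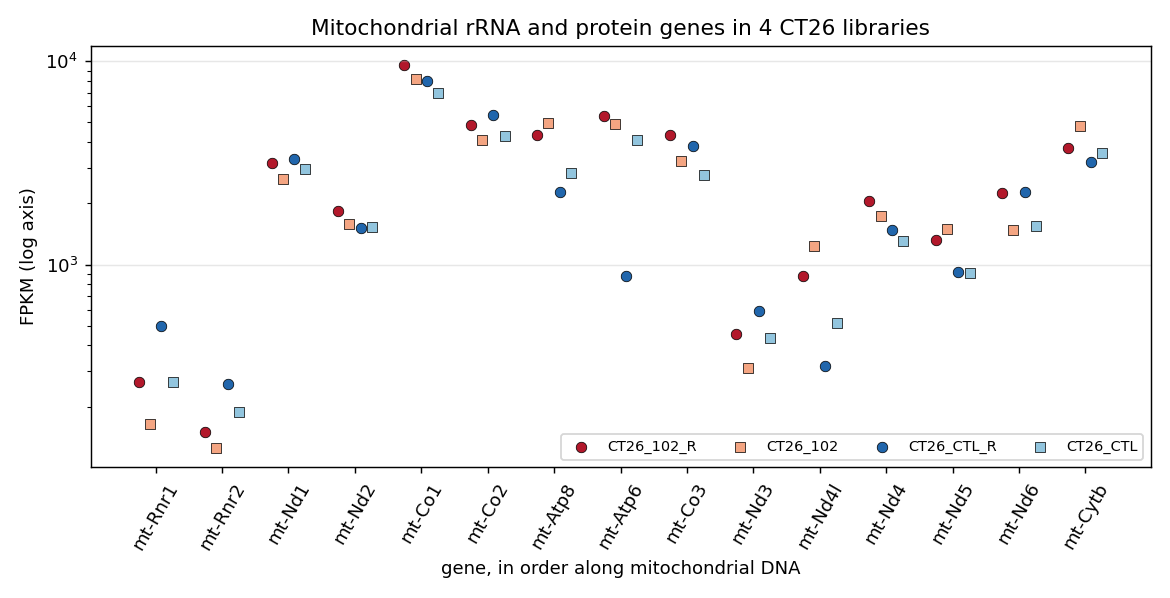
FPKM (log axis) of the 2 rRNA and 13 protein genes in the order in which they lie on mitochondrial DNA, 1 point per library, circles for libraries with suffix R and squares for those without. The mt-Atp6 point of CT26_CTL_R lies at 883 FPKM, below the other libraries at 4108 to 5405 FPKM.

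The first comparison set the libraries with suffix R, labelled FOSL2-KO with chemoradiotherapy, against those without, in a limma fit on log2(FPKM + 1) that also held the stem. Of the 13 protein genes 5 rose, 1 fell and 7 did not pass an adjusted p of 0.05. All complex IV subunits (mt-Co1, mt-Co2 and mt-Co3) were among those that rose, together with the complex I subunits mt-Nd3 and mt-Nd6, and the complex I subunit mt-Nd4l fell. Over all 11955 genes tested, 7.57% rose and 5.32% fell (12.9% in either direction). Over the 496 tested nuclear genes with a mean of at least 100 FPKM, 14.5% rose and 9.88% fell (24.4% in either direction). The median log2 difference of the protein genes was 0.21, beside 0.00 over all tested genes and 0.12 over the abundant nuclear genes. No member passed when the stem was left out of the fit, where 0.00836% of all tested genes were called (1 gene, lower with suffix R), or when genes with low FPKM were kept in the test, where 0 genes were called.

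Within complex IV, mt-Co3 had 4356 FPKM in CT26_102_R and 3847 FPKM in CT26_CTL_R, against 3215 FPKM in CT26_102 and 2744 FPKM in CT26_CTL. Both libraries with suffix R lay above both without, and the log2 difference was 0.46 ± 0.06 (adjusted p = 0.0221). For mt-Co2, which carries the copper centre that accepts electrons from cytochrome c, the values were 4834 FPKM in CT26_102_R and 5415 FPKM in CT26_CTL_R, against 4114 FPKM in CT26_102 and 4304 FPKM in CT26_CTL (log2 difference 0.28 ± 0.06, adjusted p = 0.0441). The mt-Co1 values given above overlapped between the groups, since CT26_102 lay above CT26_CTL_R, and rose within each stem (log2 difference 0.22 ± 0.05, adjusted p = 0.0487). The calls of mt-Co1 and mt-Co2 were lost under upper-quartile rescaling (adjusted p = 0.158 and 0.114), median-of-ratios rescaling (0.0899 and 0.0792), rescaling to the summed FPKM of nuclear genes (0.116 and 0.0779) and a pseudocount of 0.1 (0.0595 and 0.0522).

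Complex I genes moved in both directions. The gene mt-Nd6, the only protein gene on the strand opposite to the others, had 2249 FPKM in CT26_102_R and 2272 FPKM in CT26_CTL_R, against 1483 FPKM in CT26_102 and 1547 FPKM in CT26_CTL. These groups did not overlap, with a log2 difference of 0.58 ± 0.06 (adjusted p = 0.0198). For mt-Nd3 the libraries had 455 FPKM in CT26_102_R and 593 FPKM in CT26_CTL_R, against 310 FPKM in CT26_102 and 435 FPKM in CT26_CTL (log2 difference 0.50 ± 0.09, adjusted p = 0.0351). Its groups did not overlap either, although CT26_CTL came close to CT26_102_R. The opposite direction was seen for mt-Nd4l, with 879 FPKM in CT26_102_R and 318 FPKM in CT26_CTL_R, against 1239 FPKM in CT26_102 and 518 FPKM in CT26_CTL (log2 difference -0.60 ± 0.09, adjusted p = 0.0292). It was lower with suffix R within each stem, while CT26_102_R lay above CT26_CTL.

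The remaining complex I genes did not pass. For mt-Nd1 the values were 3145 FPKM in CT26_102_R and 3290 FPKM in CT26_CTL_R, against 2641 FPKM in CT26_102 and 2940 FPKM in CT26_CTL (log2 difference 0.21 ± 0.06, adjusted p = 0.0823). For mt-Nd4 they were 2056 FPKM in CT26_102_R and 1479 FPKM in CT26_CTL_R, against 1743 FPKM in CT26_102 and 1300 FPKM in CT26_CTL (adjusted p = 0.0909). Both genes were higher with suffix R within each stem, by less than the threshold of the test requires. Neither mt-Nd2, with 1827 FPKM in CT26_102_R and 1521 FPKM in CT26_CTL_R against 1583 FPKM in CT26_102 and 1532 FPKM in CT26_CTL, nor mt-Nd5 had the same sign in both stems. The mt-Nd5 values were 1323 FPKM in CT26_102_R and 918 FPKM in CT26_CTL_R, against 1504 FPKM in CT26_102 and 909 FPKM in CT26_CTL. The complex III subunit mt-Cytb, cytochrome b, had 3735 FPKM in CT26_102_R and 3205 FPKM in CT26_CTL_R, against 4790 FPKM in CT26_102 and 3540 FPKM in CT26_CTL (log2 difference -0.25 ± 0.07, adjusted p = 0.0802). It passed only under rescaling to the nuclear total (adjusted p = 0.0461).

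The complex V (ATP synthase) subunits mt-Atp8 and mt-Atp6 are read from 1 shared mRNA on which their reading frames overlap, and so are mt-Nd4l and mt-Nd4. The overlap is 43 bases for mt-Atp8 and mt-Atp6 and 7 bases for mt-Nd4l and mt-Nd4. The upstream frame of each pair is printed from GENCODE M21 (GRCm38, plus strand), with the overlap with the downstream frame in capitals, because fragments from these bases can count for either gene and because the pairs moved unequally.
mt-Atp8 (chrM:7766-7969): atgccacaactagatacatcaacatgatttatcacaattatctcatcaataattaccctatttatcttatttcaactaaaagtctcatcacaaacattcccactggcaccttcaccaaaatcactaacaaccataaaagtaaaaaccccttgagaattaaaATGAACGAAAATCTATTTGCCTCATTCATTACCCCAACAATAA
mt-Nd4l (chrM:9877-10173): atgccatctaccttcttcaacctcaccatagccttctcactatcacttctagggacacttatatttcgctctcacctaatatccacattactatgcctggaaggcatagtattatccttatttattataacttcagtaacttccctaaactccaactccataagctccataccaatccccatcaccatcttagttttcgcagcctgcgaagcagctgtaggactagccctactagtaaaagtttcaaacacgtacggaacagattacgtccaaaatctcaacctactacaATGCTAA

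The ratio of mt-Nd4 to mt-Nd4l FPKM was 2.34 in CT26_102_R and 4.66 in CT26_CTL_R, against 1.41 in CT26_102 and 2.51 in CT26_CTL. Within each stem this ratio was thus higher with suffix R. Both genes have copies on chromosome 1, and the limit given below for such ratios holds here too. The upstream gene mt-Atp8 had 4320 FPKM in CT26_102_R and 2277 FPKM in CT26_CTL_R, against 4975 FPKM in CT26_102 and 2809 FPKM in CT26_CTL. Its log2 difference of -0.25 ± 0.06 did not pass (adjusted p = 0.0567), but did under upper-quartile rescaling (0.0444), rescaling to the nuclear total (0.0357) and a filter of 5 FPKM (0.0331). The downstream gene mt-Atp6 had 5405 FPKM in CT26_102_R and 883 FPKM in CT26_CTL_R, against 4911 FPKM in CT26_102 and 4108 FPKM in CT26_CTL. The value of CT26_CTL_R alone stood apart, and the difference did not pass (log2 difference -1.04 ± 0.53, adjusted p = 0.220). The ratio of mt-Atp8 to mt-Atp6 was accordingly 2.58 in CT26_CTL_R and between 0.684 and 1.01 in the other libraries.

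A nuclear copy of the same sequence did not share the low value. On chromosome 1 the annotation holds 7 neighbouring pseudogenes on the minus strand (GRCm38, chr1:24611535-24616197) that match mitochondrial DNA from position 6390 to 11042, a stretch running from within mt-Co1 into mt-Nd4. The pseudogene Gm10925 matches mt-Atp6 over 678 bases with 0 mismatches. Gm10925 had 5693 FPKM in CT26_102_R and 4681 FPKM in CT26_CTL_R, against 5220 FPKM in CT26_102 and 4292 FPKM in CT26_CTL. It was thus 1.09-fold higher with suffix R in both stems, a difference that did not pass (log2 difference 0.13 ± 0.05, adjusted p = 0.158). The ratio of Gm10925 to mt-Atp6 FPKM was 5.30 in CT26_CTL_R, against 1.05 in CT26_102_R, 1.06 in CT26_102 and 1.04 in CT26_CTL. How fragments that fit both places were divided is not given in the sources used here, and its part in the mt-Atp6 value of CT26_CTL_R was not tested.

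The other pseudogenes of the stretch carried FPKM close to their mitochondrial genes wherever they cover the whole gene. Gm28661, identical to mt-Co2 over 681 bases, had 4855 FPKM in CT26_102_R, 4133 FPKM in CT26_102, 5441 FPKM in CT26_CTL_R and 4324 FPKM in CT26_CTL, a ratio of 1.005 to mt-Co2 in every library. Gm28437 (mt-Co3), Gm10222 (mt-Nd4l) and Gm28438 (mt-Nd3), which are given here to complete the stretch and not by their rank, had ratios between 1.0007 and 1.05 in every library. Gm28438 differs from mt-Nd3 by 1 substitution, T3C, counted from the first base of mt-Nd3 with the mitochondrial base first. All 7 pseudogenes together took 6.20% of the summed FPKM in CT26_102_R, 5.46% in CT26_102, 5.47% in CT26_CTL_R and 4.64% in CT26_CTL. Transcripts of the mitochondrial genes and of these pseudogenes cannot be told apart in such values. Annotated copies elsewhere in the nucleus were low, the highest being Gm13341, a copy of mt-Co2 named for that rank, at 11.01 to 13.03 FPKM.

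**Figure D2:**
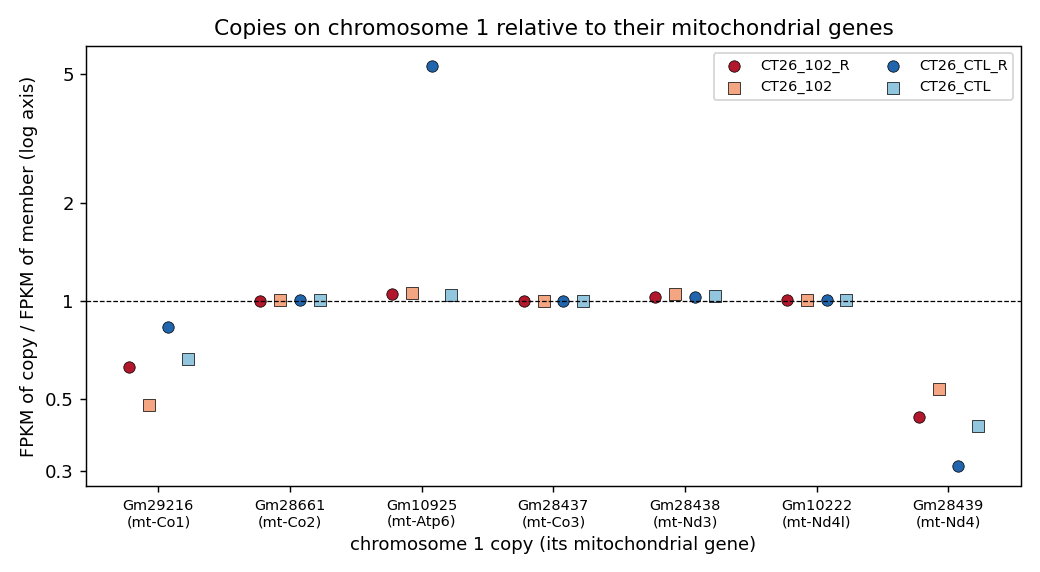
Ratio of the FPKM of each chromosome 1 pseudogene to that of its mitochondrial gene (log axis), 1 point per library, with the line at a ratio of 1. Ratios lie close to 1 for the copies that cover a whole gene, except 5.30 for Gm10925 over mt-Atp6 in CT26_CTL_R, and the copies of parts of mt-Co1 and mt-Nd4 lie below 1.

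The direction of the mitochondrial share within the stem CT26_CTL differed with and without mt-Atp6, and with the weighting. With all 37 genes, suffix R was 0.234 points above no suffix in stem CT26_102 and differed from it by -0.273 points in stem CT26_CTL. Weighted by length, with mt-Atp6 kept, suffix R was 0.438 points above no suffix in stem CT26_102 and 0.231 points above it in stem CT26_CTL. Without mt-Atp6 the share was 10.8% in CT26_102_R and 8.87% in CT26_CTL_R, against 10.6% in CT26_102 and 8.28% in CT26_CTL, and suffix R was then higher in both stems. With the 7 pseudogenes added, the share was 18.5% in CT26_102_R and 14.6% in CT26_CTL_R, against 17.5% in CT26_102 and 14.0% in CT26_CTL. The 5 protein genes that lie outside the copied stretch (mt-Nd1, mt-Nd2, mt-Nd5, mt-Nd6 and mt-Cytb) took 3.29% in CT26_102_R and 2.78% in CT26_CTL_R, against 3.45% in CT26_102 and 2.78% in CT26_CTL. Each of these shares was higher in both CT26_102 libraries than in both CT26_CTL libraries. With 2 libraries against 2, an exact permutation test cannot give a p under 0.333, and the shares were not tested.

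**Figure D3:**
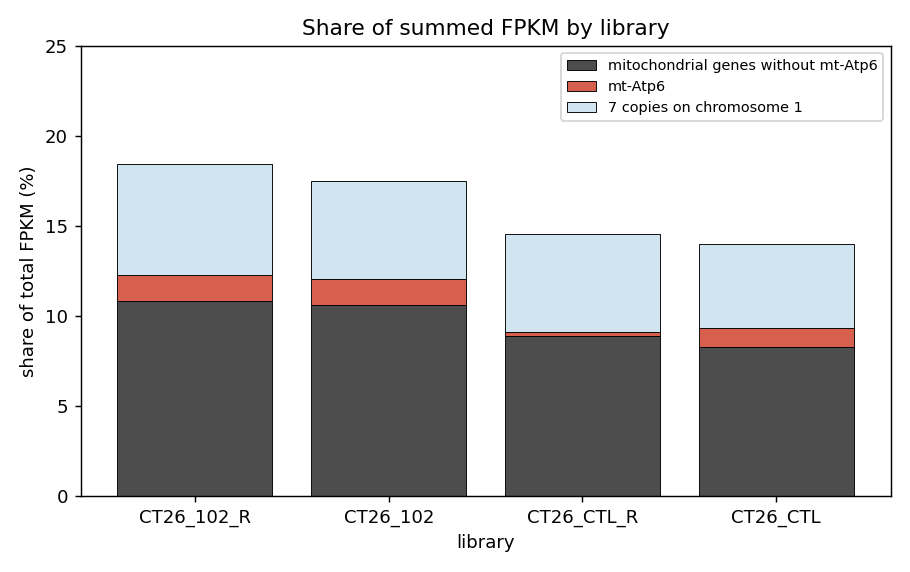
Share of the summed FPKM (%) taken by the mitochondrial genes without mt-Atp6, by mt-Atp6 and by the 7 chromosome 1 pseudogenes, stacked, 1 bar per library. The mt-Atp6 band is thin in CT26_CTL_R alone, and the summed bars run to 18.5%, 17.5%, 14.6% and 14.0% in CT26_102_R, CT26_102, CT26_CTL_R and CT26_CTL.

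A pair of the pseudogenes match only a part of a gene. Gm29216 matches the last 483 bases of mt-Co1 (mitochondrial positions 6390 to 6872) apart from the substitution A1066T, counted from the first base of mt-Co1. Its level was 5982 FPKM in CT26_102_R and 6693 FPKM in CT26_CTL_R, against 3913 FPKM in CT26_102 and 4623 FPKM in CT26_CTL, and it rose with suffix R (log2 difference 0.57 ± 0.05, adjusted p = 0.0179). Relative to whole mt-Co1 it stood at 0.625 in CT26_102_R and 0.834 in CT26_CTL_R, against 0.479 in CT26_102 and 0.665 in CT26_CTL. The ratio was therefore higher with suffix R in both stems. Gm28439 matches the first 876 bases of mt-Nd4 (positions 10167 to 11042), and its level was 901 FPKM in CT26_102_R and 458 FPKM in CT26_CTL_R, against 936 FPKM in CT26_102 and 538 FPKM in CT26_CTL (adjusted p = 0.287). Relative to whole mt-Nd4 it stood at 0.438 in CT26_102_R and 0.310 in CT26_CTL_R, against 0.537 in CT26_102 and 0.414 in CT26_CTL, lower with suffix R in both stems. The copy of a 3′ part thus stood higher against its gene with suffix R, and the copy of a 5′ part lower. Of the genes that share a message, mt-Nd4 stood higher against mt-Nd4l with suffix R in both stems, whereas mt-Atp6 stood higher against mt-Atp8 in stem CT26_102 and lower in stem CT26_CTL. Since the division of fragments between gene and copy is unknown, these ratios are no measure of the ends of the mitochondrial messages. The ratio of Gm10925 to mt-Atp6 differed between libraries, and the part of this division in it was not tested. RNA integrity and the evenness of coverage along transcripts cannot be read from values per gene, and their part in these ratios was not tested.

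Both rRNA genes were higher with suffix R, and only mt-Rnr1 passed. The small-subunit rRNA mt-Rnr1 had 264 FPKM in CT26_102_R and 501 FPKM in CT26_CTL_R, against 165 FPKM in CT26_102 and 263 FPKM in CT26_CTL (log2 difference 0.80 ± 0.11, adjusted p = 0.0251). The large-subunit rRNA mt-Rnr2 had 151 FPKM in CT26_102_R and 259 FPKM in CT26_CTL_R, against 125 FPKM in CT26_102 and 189 FPKM in CT26_CTL (log2 difference 0.36 ± 0.10, adjusted p = 0.0802). The ratio of mt-Rnr1 to mt-Rnr2 was 1.75 in CT26_102_R and 1.94 in CT26_CTL_R, against 1.32 in CT26_102 and 1.39 in CT26_CTL, and the groups did not overlap.

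Of the 22 tRNA genes 20 were tested, and 8 rose with suffix R (40%), 3 fell (15%) and 9 did not pass. Over all tested genes 7.57% rose and 5.32% fell, and over the abundant nuclear genes 14.5% rose and 9.88% fell. The median log2 difference of the 20 was 0.35. The genes mt-Tq and mt-Ts1 missed the filter of at least 1 FPKM in 2 libraries. A pair of blocks of neighbouring genes, chosen after their values were seen, moved in opposite directions. Genes within a block lie close together, may share fragments and are not separate observations. The genes for histidine, serine (AGY codons) and leucine (CUN codons), mt-Th, mt-Ts2 and mt-Tl2, lie end to end between mt-Nd4 and mt-Nd5 and are the 3 that fell. Those for alanine, asparagine, cysteine and tyrosine, mt-Ta, mt-Tn, mt-Tc and mt-Ty, lie together on the minus strand between mt-Tw and mt-Co1, and all 4 rose. Their sequences are shown from GENCODE M21 (GRCm38), 5′ to 3′ on the strand of the gene, with the anticodon in capitals where its position was found without ambiguity.
mt-Th (chrM:11546-11612, plus strand): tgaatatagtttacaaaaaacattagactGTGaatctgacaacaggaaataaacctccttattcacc
mt-Ts2 (chrM:11613-11671, plus strand): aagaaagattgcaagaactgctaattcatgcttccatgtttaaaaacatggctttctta
mt-Tl2 (chrM:11671-11741, plus strand): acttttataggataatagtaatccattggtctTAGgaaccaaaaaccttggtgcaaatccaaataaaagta
mt-Ta (chrM:5018-5086, minus strand): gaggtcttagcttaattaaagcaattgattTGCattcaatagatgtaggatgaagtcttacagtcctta
mt-Tn (chrM:5089-5159, minus strand): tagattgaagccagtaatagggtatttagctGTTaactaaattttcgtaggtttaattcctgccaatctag
mt-Tc (chrM:5192-5257, minus strand): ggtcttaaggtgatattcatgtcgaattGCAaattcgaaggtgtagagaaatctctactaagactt
mt-Ty (chrM:5260-5326, minus strand): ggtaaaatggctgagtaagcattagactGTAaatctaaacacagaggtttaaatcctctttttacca

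The block between mt-Nd4 and mt-Nd5 fell to 0.374 to 0.458 of the level without suffix R, over the 3 genes and both stems. Its histidine gene mt-Th had 21.5 FPKM in CT26_102_R and 10.3 FPKM in CT26_CTL_R, against 46.9 FPKM in CT26_102 and 26.1 FPKM in CT26_CTL (log2 difference -1.18, adjusted p = 0.0198). For mt-Ts2 the values were 13.5 FPKM in CT26_102_R and 7.14 FPKM in CT26_CTL_R, against 34.2 FPKM in CT26_102 and 19.1 FPKM in CT26_CTL (log2 difference -1.29, adjusted p = 0.0179). For mt-Tl2 they were 9.21 FPKM in CT26_102_R and 4.72 FPKM in CT26_CTL_R, against 22.1 FPKM in CT26_102 and 10.9 FPKM in CT26_CTL (log2 difference -1.12, adjusted p = 0.0205). In each of the 3 genes the groups did not overlap. Genes of this length carry few fragments, here approximately 7.25 to 68.0 per gene and library.

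The block on the minus strand stood at 1.796 to 2.04 times the level without suffix R, over the 4 genes and both stems. The highest of them, mt-Tn, had 110 FPKM in CT26_102_R and 268 FPKM in CT26_CTL_R, against 59.4 FPKM in CT26_102 and 137 FPKM in CT26_CTL (log2 difference 0.92, adjusted p = 0.0200). For mt-Tc the values were 88.6 FPKM in CT26_102_R and 206 FPKM in CT26_CTL_R, against 46.7 FPKM in CT26_102 and 101.5 FPKM in CT26_CTL (log2 difference 0.96, adjusted p = 0.0198). In both genes CT26_CTL_R was the highest library and CT26_102 the lowest. For mt-Ta the values were 56.9 FPKM in CT26_102_R and 131 FPKM in CT26_CTL_R, against 30.7 FPKM in CT26_102 and 72.8 FPKM in CT26_CTL (log2 difference 0.86, adjusted p = 0.0235). For mt-Ty they were 39.4 FPKM in CT26_102_R and 77.5 FPKM in CT26_CTL_R, against 21.9 FPKM in CT26_102 and 38.0 FPKM in CT26_CTL (log2 difference 0.91, adjusted p = 0.0252), with no overlap between the groups. For mt-Ta, mt-Tn and mt-Tc the stem difference was wider than that of the suffix (log2 differences -1.21, -1.24 and -1.16). Accordingly CT26_CTL lay above CT26_102_R in these genes. For mt-Ty the stem difference was narrower than that of the suffix (-0.86). The genes of the block carried approximately 31.8 to 412 fragments per gene and library.

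Among the other tRNA genes mt-Te (glutamate), mt-Tp (proline), mt-Tt (threonine) and mt-Ti (isoleucine) rose with suffix R. The most abundant tRNA gene, mt-Te, had 451 FPKM in CT26_102_R and 553 FPKM in CT26_CTL_R, against 275 FPKM in CT26_102 and 360 FPKM in CT26_CTL (log2 difference 0.67 ± 0.09, adjusted p = 0.0240). For mt-Tp the values were 97.2 FPKM in CT26_102_R and 97.1 FPKM in CT26_CTL_R, against 52.0 FPKM in CT26_102 and 70.6 FPKM in CT26_CTL (log2 difference 0.67 ± 0.15, adjusted p = 0.0480), and the call was lost under rescaling to the nuclear total (0.0579) and a pseudocount of 0.1 (0.0533). The groups of both genes were thus separate. The threonine gene mt-Tt had 33.7 FPKM in CT26_102_R and 66.7 FPKM in CT26_CTL_R, against 19.9 FPKM in CT26_102 and 35.0 FPKM in CT26_CTL (log2 difference 0.82 ± 0.12, adjusted p = 0.0292), so CT26_CTL lay above CT26_102_R. The isoleucine gene mt-Ti was low, with 3.55 FPKM in CT26_102_R and 10.8 FPKM in CT26_CTL_R, against 1.65 FPKM in CT26_102 and 5.69 FPKM in CT26_CTL (log2 difference 0.80 ± 0.13, adjusted p = 0.0337). Tryptophan's mt-Tw had 30.2 FPKM in CT26_102_R and 74.7 FPKM in CT26_CTL_R, against 22.0 FPKM in CT26_102 and 52.7 FPKM in CT26_CTL (adjusted p = 0.0602). Leucine's mt-Tl1 (UUR codons), which follows mt-Rnr2 directly, had 256 FPKM in CT26_102_R and 296 FPKM in CT26_CTL_R, against 218 FPKM in CT26_102 and 279 FPKM in CT26_CTL (adjusted p = 0.288).

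The other 7 tested tRNA genes were low and did not pass in either comparison. For mt-Td (aspartate) the values were 5.02 FPKM in CT26_102_R and 6.71 FPKM in CT26_CTL_R, against 3.18 FPKM in CT26_102 and 3.68 FPKM in CT26_CTL (adjusted p = 0.0520), and it passed with a filter of 5 FPKM (0.0405). For mt-Tk (lysine) they were 13.7 FPKM in CT26_102_R and 15.2 FPKM in CT26_CTL_R, against 18.1 FPKM in CT26_102 and 18.0 FPKM in CT26_CTL (adjusted p = 0.167). Both kept 1 sign in the 2 stems, whereas the next 5 did not. Phenylalanine's mt-Tf had 2.14 FPKM in CT26_102_R and 2.31 FPKM in CT26_CTL_R, against 1.69 FPKM in CT26_102 and 2.66 FPKM in CT26_CTL. Valine's mt-Tv had 0.372 FPKM in CT26_102_R and 2.43 FPKM in CT26_CTL_R, against 2.25 FPKM in CT26_102 and 1.94 FPKM in CT26_CTL. Methionine's mt-Tm had 4.07 FPKM in CT26_102_R and 6.40 FPKM in CT26_CTL_R, against 4.53 FPKM in CT26_102 and 3.90 FPKM in CT26_CTL. The groups overlapped in mt-Tf, mt-Tv and mt-Tm, and also in mt-Tg and mt-Tr, which are given next. Glycine's mt-Tg had 1.81 FPKM in CT26_102_R and 2.79 FPKM in CT26_CTL_R, against 3.62 FPKM in CT26_102 and 2.45 FPKM in CT26_CTL. Arginine's mt-Tr had 1.48 FPKM in CT26_102_R and 1.19 FPKM in CT26_CTL_R, against 1.43 FPKM in CT26_102 and 3.49 FPKM in CT26_CTL.

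The 5 tRNA genes inside the stretch copied on chromosome 1 (mt-Ts1, mt-Td, mt-Tk, mt-Tg and mt-Tr) lay between 0.155 and 18.1 FPKM, while the 17 outside it reached 275 to 553 FPKM and had medians of 30.2 FPKM in CT26_102_R, 22.1 FPKM in CT26_102, 66.7 FPKM in CT26_CTL_R and 35.0 FPKM in CT26_CTL. The ranges overlapped, since the lowest gene outside stood at 0.372 to 1.57 FPKM by library. In 11 of the 37 members at least 1 library held under 10 approximate fragments.

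Ordered by strand, the 7 tested genes on the minus strand of the reference, mt-Nd6 and 6 tRNA genes, all rose with suffix R, with a median log2 difference of 0.86. The shares over all tested genes were 7.57% that rose and 5.32% that fell. These 7 genes are not separate observations, since 4 of them form the block chosen after its values were seen, and mt-Nd6 and mt-Te adjoin. Fragments shared between neighbours were not looked at. Under rescaling to the nuclear total and with a pseudocount of 0.1, 6 of the 7 passed and all 7 stayed positive. With the stem left out of the fit 0 of the 7 passed, beside 1 of all tested genes. With genes of low FPKM kept in the test 0 of the 7 passed, beside 0 of all tested genes. Of the 28 tested genes on the plus strand 7 rose (25%) and 4 fell (14.3%), with a median log2 difference of 0.13, and the difference between the strands was not tested. Whether the library kit kept the strand of the RNA is not given in the sources used here, so fragments from a minus-strand gene and from plus-strand precursor opposite to it cannot be told apart. Over all members, 27 of the 35 tested genes had the same sign of the suffix difference in both stems. The same count was not made over all tested genes, so it cannot be said whether this share is unusual.

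**Figure D4:**
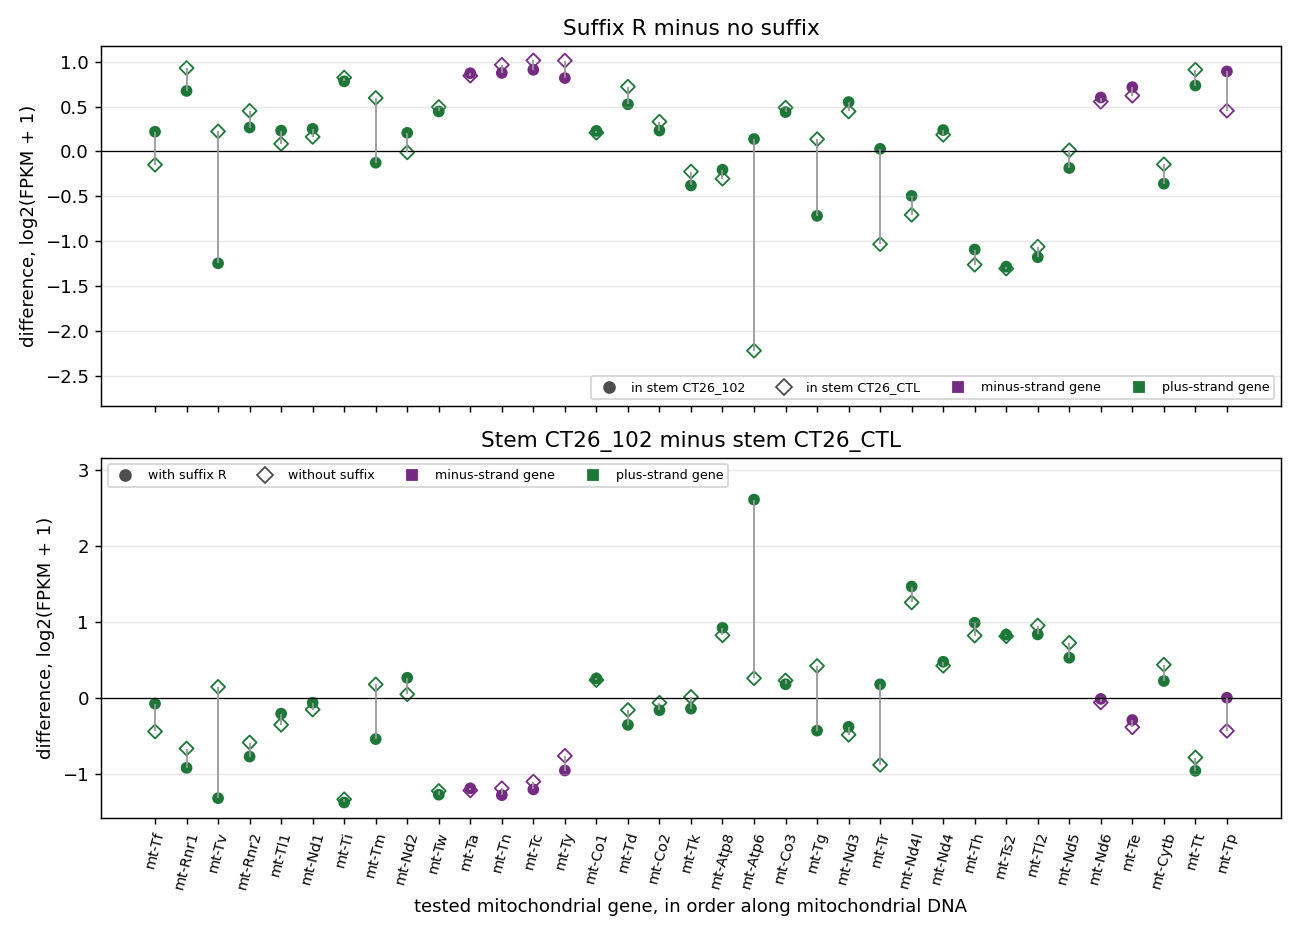
Differences in log2(FPKM + 1) of the 35 tested mitochondrial genes in the order in which they lie on mitochondrial DNA, between libraries with and without suffix R in each stem (upper panel) and between the stems with and without suffix R (lower panel), with a grey line joining the paired values. Minus-strand genes (purple) lie above 0 in the upper panel, the block of mt-Th, mt-Ts2 and mt-Tl2 lies below -1, and mt-Atp6 differs most between its 2 values.

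The second comparison set the stem CT26_102 against the stem CT26_CTL with the suffix in the fit. Of the 13 protein genes 6 were higher in CT26_102, 1 was lower and 6 did not pass. Over all tested genes 12.5% were higher and 9.44% lower (21.9% in either direction), and over the abundant nuclear genes 4.64% were higher and 36.3% lower (40.9% in either direction). The median log2 difference of the protein genes was 0.24, that of all tested genes 0.05 and that of the abundant nuclear genes -0.30. No member passed when the suffix was left out of the fit, where 0.234% of all tested genes were higher and 0.0502% lower (0.284% in either direction), or when genes with low FPKM were kept, where 0 genes were called. Rescaling to the nuclear total shifted the median of all tested genes by 0.14, and 8 protein genes were then higher and 0 lower. Of the 11955 tested genes 2557 were higher and 738 lower under this rescaling.

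The widest stem difference among the protein genes that passed was that of mt-Nd4l, with 879 FPKM in CT26_102_R and 1239 FPKM in CT26_102, against 318 FPKM in CT26_CTL_R and 518 FPKM in CT26_CTL (log2 difference 1.36 ± 0.09, adjusted p = 0.00430). Its partner mt-Nd4 was higher by a smaller amount (0.45 ± 0.07, adjusted p = 0.0172). For mt-Atp8 the values were 4320 FPKM in CT26_102_R and 4975 FPKM in CT26_102, against 2277 FPKM in CT26_CTL_R and 2809 FPKM in CT26_CTL (log2 difference 0.87 ± 0.06, adjusted p = 0.00468). The stems did not overlap in any of these 3 genes. The complex I subunit mt-Nd5 was also higher (0.63 ± 0.08, adjusted p = 0.0142), whereas mt-Nd3 was lower (-0.43 ± 0.09, adjusted p = 0.0302), a call lost under rescaling to the nuclear total (0.0814). The calls of mt-Co1 (0.24 ± 0.05, adjusted p = 0.0293) and mt-Cytb (0.33 ± 0.07, adjusted p = 0.0386) were lost under upper-quartile rescaling (0.0557 and 0.0631) and median-of-ratios rescaling (0.112 for both), and that of mt-Co1 also when it was summed with Gm29216 (0.316). The mt-Atp6 difference of 1.43 ± 0.53 did not pass (adjusted p = 0.111), while its copy Gm10925 was higher in CT26_102 by 0.28 ± 0.05 (adjusted p = 0.0265).

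The same copies differed between the stems. Gm28439, the copy of the first part of mt-Nd4, was higher in CT26_102 by 0.89 ± 0.09 on the log2 scale (adjusted p = 0.00824), against 0.45 for the whole gene. Gm29216, the copy of the last part of mt-Co1, had a log2 difference of -0.20 ± 0.05 that did not pass (adjusted p = 0.0582), against 0.24 for the whole gene. The difference between copy and gene was not tested, and the limit on the division of fragments holds here too.

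Both rRNA genes and the minus-strand tRNA block were lower in CT26_102. The log2 difference was -0.80 ± 0.11 for mt-Rnr1 (adjusted p = 0.0145) and -0.68 ± 0.10 for mt-Rnr2 (adjusted p = 0.0185). Over all tested genes 12.5% were higher and 9.44% lower, and over the abundant nuclear genes 4.64% were higher and 36.3% lower. Most of the 20 tested tRNA genes had a mean under 100 FPKM, the limit for the abundant nuclear genes. Of these 20 genes 3 were higher (15%), 7 were lower (35%, above that 9.44% and near that 36.3%) and 10 did not pass. Those higher were mt-Th, mt-Ts2 and mt-Tl2, which stood at 1.79 to 2.08 times the level of CT26_CTL. The tRNA genes mt-Ta, mt-Tn, mt-Tc and mt-Ty were lower, at 0.409 to 0.578 of the level of CT26_CTL, and so were mt-Ti (-1.36 ± 0.13, adjusted p = 0.00845), mt-Tw (-1.25 ± 0.12, adjusted p = 0.00784) and mt-Tt (-0.87 ± 0.12, adjusted p = 0.0161). On the minus strand 4 of the 7 tested genes were lower and 0 higher, while mt-Nd6 differed by -0.04 (adjusted p = 0.694). The gene mt-Co1 stood at 63.5 times mt-Rnr2 in CT26_102_R and 65.2 times in CT26_102, against 31.0 times in CT26_CTL_R and 36.8 times in CT26_CTL.

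Nuclear genes that serve mitochondrial gene expression were counted from lists drawn up by function. Of 26 tested genes for replication and transcription of mitochondrial DNA 2 rose with suffix R (7.69%, beside 7.57% over all tested genes), namely Gabpb1, a subunit of an activator of nuclear genes for mitochondrial proteins, and Top1mt, the mitochondrial topoisomerase. The transcription factor Tfam had 9.94 FPKM in CT26_102_R and 9.06 FPKM in CT26_CTL_R, against 8.66 FPKM in CT26_102 and 14.0 FPKM in CT26_CTL (adjusted p = 0.538). Neither Polrmt, the mitochondrial RNA polymerase (5.43 FPKM in CT26_102_R and 4.55 FPKM in CT26_CTL_R, against 5.34 FPKM in CT26_102 and 4.64 FPKM in CT26_CTL), nor the mRNA-binding factor Lrpprc passed (adjusted p = 0.106). Of 38 genes for RNA processing and decay 2 rose (5.26%) and 1 fell (2.63%), shares below those of all tested genes. The FASTK family members Tbrg4 (log2 difference 0.68 ± 0.13, adjusted p = 0.0422) and Fastkd5 (0.68 ± 0.13, adjusted p = 0.0413) rose, and Tfb1m, which methylates the small-subunit rRNA, fell to 1.77 FPKM in CT26_102_R and 1.91 FPKM in CT26_CTL_R, against 3.92 FPKM in CT26_102 and 3.35 FPKM in CT26_CTL. Among 21 mitochondrial tRNA synthetases 0 rose and 2 fell (9.52%, beside 5.32% of all tested genes that fell and 12.9% called in either direction). The isoleucine enzyme Iars2 fell to 6.88 FPKM in CT26_102_R and 3.78 FPKM in CT26_CTL_R, against 17.1 FPKM in CT26_102 and 10.1 FPKM in CT26_CTL (log2 difference -1.20 ± 0.13, adjusted p = 0.0198).

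The respiratory complexes and the mitochondrial ribosome join mitochondrially encoded parts with nuclear ones. Of 73 nuclear subunits of complexes I, III, IV and V 14 rose with suffix R (19.2%) and 1 fell (1.37%), beside 7.57% and 5.32% over all tested genes and 14.5% and 9.88% over the abundant nuclear genes. Their median log2 difference was 0.29, beside 0.12 over the abundant nuclear genes. Examples were Ndufb6 of complex I (log2 difference 1.08 ± 0.18, adjusted p = 0.0332), Uqcr10 of complex III (0.79 ± 0.10, adjusted p = 0.0228) and Cox7a2 of complex IV (0.75 ± 0.11, adjusted p = 0.0291). Of 11 nuclear complex IV genes 5 rose (45.5%) and 0 fell, and of the 4 genes of complex II, which is encoded in the nucleus alone, 0 were called, a list too short to set against these shares. Of 78 mitochondrial ribosomal proteins 10 rose (12.8%) and 0 fell, with a median of 0.25, and the paralogues Mrps18a, Mrps18b and Mrps18c had the widest differences at 0.90, 0.82 and 0.84.

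Between the stems, 0 of the 73 nuclear subunits were higher and 24 were lower in CT26_102 (32.9%, near the 36.3% lower among the abundant nuclear genes), with a median log2 difference of -0.34, beside -0.30 over the abundant nuclear genes and 0.24 over the mitochondrial protein genes. Ndufa1 of complex I had 98.3 FPKM in CT26_102_R and 66.4 FPKM in CT26_102, against 212 FPKM in CT26_CTL_R and 142 FPKM in CT26_CTL (log2 difference -1.10 ± 0.10, adjusted p = 0.00784). Cox7c of complex IV had a log2 difference of -1.004 and Usmg5 of complex V one of -0.999. The mitochondrial ribosomal proteins had 2 higher (2.56%) and 9 lower genes (11.5%), beside 12.5% higher and 9.44% lower over all tested genes, from Mrpl24 at 1.35 to Mrpl33 at -1.05 and Mrpl54 at -1.02. In the RNA processing list 0 genes were higher and 4 lower (10.5%, near the 9.44% over all tested genes). Among them were Fastk (-1.03, adjusted p = 0.0156), which is required for mt-Nd6 mRNA, Hsd17b10 (-0.68) and Trmt10c (-0.61). Hsd17b10 and Trmt10c are subunits of mitochondrial RNase P, a complex that cuts precursors at the 5′ ends of tRNAs. In the replication and transcription list the coactivator Ppargc1a was the only gene called, at 0.918 FPKM in CT26_102_R and 0.459 FPKM in CT26_102, against 3.04 FPKM in CT26_CTL_R and 1.43 FPKM in CT26_CTL (log2 difference -0.91 ± 0.17, adjusted p = 0.0265). Of the synthetases 2 were higher (9.52%), Vars2 by 0.74 and Iars2 by 0.71, and 1 was lower (4.76%), Tars2 at -0.56, shares below those of all tested genes.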

How the data were processed

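RNA-seq was measured in 4 CT26 libraries. Per the labels' protocols, RNA was purified with an RNeasy kit and libraries were prepared with a SMARTer mRNA-Seq kit. The authors deposited FPKM per gene and library; the submitters' processing notes name the builds GRCm38 and mm10, while the sources used here name neither the aligner nor the quantifier and strand setting. From the deposited FPKM, genes with at least 1 FPKM in at least 2 libraries were kept (11955 genes) and log2(FPKM + 1) was fitted with limma 3.58.1 in R 4.3.3 (empirical Bayes with a mean-variance trend), with suffix and stem as terms, 1 residual degree of freedom and a prior of 4.01. Adjusted p-values are Benjamini-Hochberg over all tested genes, two-sided, with a threshold of 0.05, and errors are standard errors of the fit. A fold change on this scale understates the change of low genes. Of the 55335 listed genes 55154 were in GENCODE M21, which gave positions, lengths and sequences, the latter from the C57BL/6J reference and not from CT26. Nuclear copies are annotated genes matching mitochondrial DNA at 90% identity or more over at least 80% of their length (BLAST 2.17.0). Depths come from step sizes among low FPKM values and are approximate, so no counting intervals are given. All mitochondrial genes are named, and at most 3 nuclear genes per list and comparison, those past the threshold with the widest difference, plus Tfam, Polrmt and Lrpprc. A nuclear gene that this rule names is not reported here. The members and gene lists were chosen with earlier results of these data known. Alternatives were other scalings, pseudocounts and filters, single-division fits and leaving out libraries.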

Additional observations from a re-analysis of the deposited data

Results flagged for a closer look

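In 8 mitochondrial genes and 2 summed shares the difference between suffix R and no suffix had opposite directions in the 2 stems. Each stem holds 1 library with and 1 without suffix R, so the difference between the stems was not tested. The widest was mt-Atp6, whose log2 difference in stem CT26_102 exceeded that in stem CT26_CTL by 2.35. Of the other protein genes, mt-Nd2 differed by 0.22 in the same sense and mt-Nd5 by -0.20 in the opposite sense. Among the tRNA genes the stem CT26_102 difference less the stem CT26_CTL difference was 1.06 for mt-Tr and 0.37 for mt-Tf, and it was -1.47 for mt-Tv, -0.85 for mt-Tg and -0.72 for mt-Tm. These 5 tRNA genes did not exceed 6.40 FPKM in any library. For the share of summed FPKM, suffix R minus no suffix was 0.507 percentage points higher in stem CT26_102 than in stem CT26_CTL over all members, and 0.598 points higher over the protein genes.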

How the results depend on the processing

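With the other division left out of the fit, 1 gene passed for the suffix and 34 for the stem (1281 and 2000 at an unadjusted p under 0.05), in place of 1541 and 2623, and the protein and tRNA members had 0 calls in either comparison, with 1 and 4 members under an unadjusted 0.05 for the suffix and 3 and 4 for the stem. With no filter beyond FPKM above 0, limma made 0 calls in any of these counts, with 4937 genes for the suffix and 5802 for the stem under an unadjusted 0.05, of which 3 and 5 were protein and 14 and 11 tRNA members. Calls for the suffix split into 905 higher and 636 lower genes, against 937 and 1011 under upper-quartile rescaling and 741 and 939 under rescaling to the nuclear total. Calls for the stem split into 1494 and 1129, against 2557 and 738 under rescaling to the nuclear total, and against 1190 and 1312 under median-of-ratios rescaling and 1061 and 1121 with a filter of 5 FPKM, where lower calls were the more numerous. Under rescaling to the nuclear total mt-Tf turned to -0.0187 for the suffix (-0.00447 under upper-quartile rescaling), and mt-Nd1 (0.0673), mt-Co2 (0.0628), mt-Tk (0.10), mt-Tg (0.12) and mt-Nd6 (0.14) turned for the stem, and none of these passed before or after. The suffix difference in the share of all members, a mean over both stems, was -0.0196 points. This mean was positive under every other weighting or choice of genes run. It was 0.334 weighted by length, 0.232 without genes under 300 bases and 0.0869 without the 10 most abundant nuclear genes. In choices made after seeing the data it was 0.0735 with the chromosome 1 pseudogenes left out of the total, 0.398 without mt-Atp6 and 0.765 with the pseudogenes added. In stem CT26_CTL alone the difference stayed negative without genes under 300 bases (-0.112), without the 10 most abundant nuclear genes (-0.140) and with the pseudogenes left out (-0.202). It was positive there weighted by length (0.231), without mt-Atp6 (0.597) and with the pseudogenes added (0.560). With genes weighted by length the suffix difference was 0.304 points for the protein genes and 0.00377 for the tRNA genes, against -0.170 and 0.102. The stem difference of all members was 2.92 points, and it was 0.764 weighted by length, 2.38 without genes under 300 bases, 2.15 without mt-Atp6 and 3.70 with the pseudogenes. That of the protein genes was 3.08, and it was 0.801 weighted by length, 2.44 without short genes and 2.30 without mt-Atp6. That of the tRNA genes was -0.100, and -0.00386 weighted by length. Leaving out 1 library left 1 pair per comparison and no test, with suffix differences of -0.273 to 0.234 points for all members, -0.469 to 0.129 for protein, 0.0276 to 0.0688 for rRNA and 0.0775 to 0.127 for tRNA genes, and stem differences of 2.67 to 3.18, 2.78 to 3.38, -0.0776 to -0.0363 and -0.125 to -0.0754. The causes of these changes were not tested.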
